A study of Homo sapiens with 80 samples.

Results

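Steady RNA and nascent RNA were set against each other, gene by gene, in parental SU-DHL-1 cells, an established T cell lymphoma line of the anaplastic large cell type in which a fusion of the kinase ALK drives growth. The members were 6 of the 80 samples of a study of lenalidomide resistance: 3 RNA-seq libraries of steady RNA and 3 PRO-seq libraries of nascent RNA, all from cells never selected on the drug. The steady RNA came from parental cells that expressed Cas9 and carried an inducible vector with a guide RNA against ZFP91, given no doxycycline, so ZFP91 was wild type. The nascent RNA came from parental cells for which the labels name no vector, no Cas9 and no treatment. Both were grown in RPMI1640 with 10% FBS. PRO-seq (precision run-on sequencing) reads the RNA that engaged RNA polymerase is extending in permeabilized cells, whereas RNA-seq reads RNA extracted with a column kit. Of 17422 genes joined on gene identifier, the 15767 with a mean above 1 CPM (counts scaled to a common library total) in at least 1 assay were ranked by the ratio of steady to nascent RNA.

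The amount of an RNA in a cell is set by how fast it is made and how fast it is degraded. For the same rate of synthesis, a long-lived messenger such as that of a ribosomal protein or a glycolytic enzyme builds up, whereas the messengers of immediate early genes carry AU-rich elements and decay within minutes to hours. Non-coding transcripts that are trimmed to a small RNA, spliced to release a snoRNA or kept in the nucleus can be made at a high rate and leave little RNA behind. The ratio of steady to nascent RNA is therefore used as a proxy for RNA stability. It is a relative scale here, since no spike-in is stated, and the assay, the experiment and the vector in the cells changed together, so these cannot be told apart.

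The RNA-seq libraries held 17 to 20.4 M counts and the PRO-seq libraries 34.6 to 38.7 M. Replicates correlated at r = 0.989 to 0.995 over log2 CPM, and the biological coefficient of variation of the fit was 11%. Nothing in the labels says that the 3 parental libraries of an assay came from separate cultures, so the tests measure only the spread between libraries, and in bulk RNA the number of expressing cells and the amount per cell cannot be told apart. The labelled cell type was visible in both assays. Of 9 markers of this lymphoma 8 were tested, among them TNFRSF8 (the CD30 gene) at 512 to 577 CPM in steady RNA and 553 to 583 CPM in nascent RNA. Of the markers of other cells, most are not in the joined data and were not compared: 3 of 12 T cell markers were joined, 1 of 6 B cell markers (CD79A, at 0.098 to 0.345 CPM in steady RNA and 2.92 to 4.24 CPM in nascent RNA), 0 of 7 myeloid markers, and 2 of 8 epithelial and stromal markers, KRT18 and KRT8. The joined T cell markers differed. CD3D had 31.3 to 40.1 CPM in steady RNA and 14.2 CPM in each nascent library, and CD5 had 90.2 to 101 and 58.9 to 61.6 CPM. LCK had 0 to 0.0575 CPM in steady RNA and 1.39 to 1.65 CPM in nascent RNA. Loss of T cell receptor expression is a known trait of this lymphoma. The receptor chain markers were not among the joined genes, so this trait was not examined here.

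Steady RNA followed nascent RNA loosely. Across the 15767 genes Spearman's rho between the mean CPM values was 0.680, and across the 11302 genes above 1 CPM in both assays it was 0.575; genes are not independent replicates and share the library totals. A gene was called when edgeR's quasi-likelihood test gave an adjusted p under 0.05 and the fitted ratio was at least 4-fold, a log2 ratio of 2. By that rule 1716 genes (10.9%) were higher in steady RNA and 5252 (33.3%) lower. The 3 values of 1 assay lay all above the 3 of the other in 1714 of the 1716 and in 5252 of the 5252. A 4-fold call nearly requires this separation, and its share over all tested genes is not given here, so it adds no support. At the middle of the ranking the log2 ratio was -0.46, with quartiles at -3.35 and 0.98 and a median standard error of 0.146. Scaling matters to the zero of this axis: the TMM factors add 0.895 to every log2 ratio of plain CPM values, and with library size alone 680 genes were higher and 6621 lower. Genes with a log2 ratio between 0 and that shift therefore had, on average, less steady than nascent RNA in CPM. Of the genes named here, MYC, CSNK2B, STAT3, CCND3, MCL1, TGFB1 and ZNF207 reached the 4-fold limit on the TMM scale and not with library size alone. IKZF1, CRBN, TNFRSF8, IL2RA and NEAT1 were below 0 with library size alone.

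Gene classes differed in their ratios, in part through the filter. Of 11340 protein-coding genes 1576 (13.9%) were higher in steady RNA and 1678 (14.8%) lower, with a median log2 ratio of 0.27. Of 1509 long non-coding RNA genes 17 were higher and 1249 lower, with a median of -4.66. Pseudogenes (696 tested) had a median of -3.60, genes of small structured RNA (121 tested) of -9.35 and genes with no match in RefSeq (2083 tested) of -5.28. Of the tested genes 4304 passed the filter through nascent RNA alone and 161 through steady RNA alone, which sets the side they can fall on. Both assays were above 1 CPM for 10221 of the coding genes, 475 of the long non-coding, 245 of the pseudogenes, 5 of the small structured and 351 of the unmatched. Over those genes the median was 0.46 for coding, -2.18 for long non-coding and -1.43 for unmatched genes. No RNA-seq count at all was seen for 1039 genes that passed on their nascent RNA, of which 131 were protein-coding. The 100 genes with the most RNA-seq counts held 18.1% of the steady RNA, and 85 of them were called higher. Of the 100 genes with the most PRO-seq counts, which held 11.3% of the nascent RNA, 35 were called lower and 2 higher, and 15 genes stood in both sets. The scatter of steady against nascent RNA shows all tested genes, with some gene lists marked rather than these classes.

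**Figure D1:**
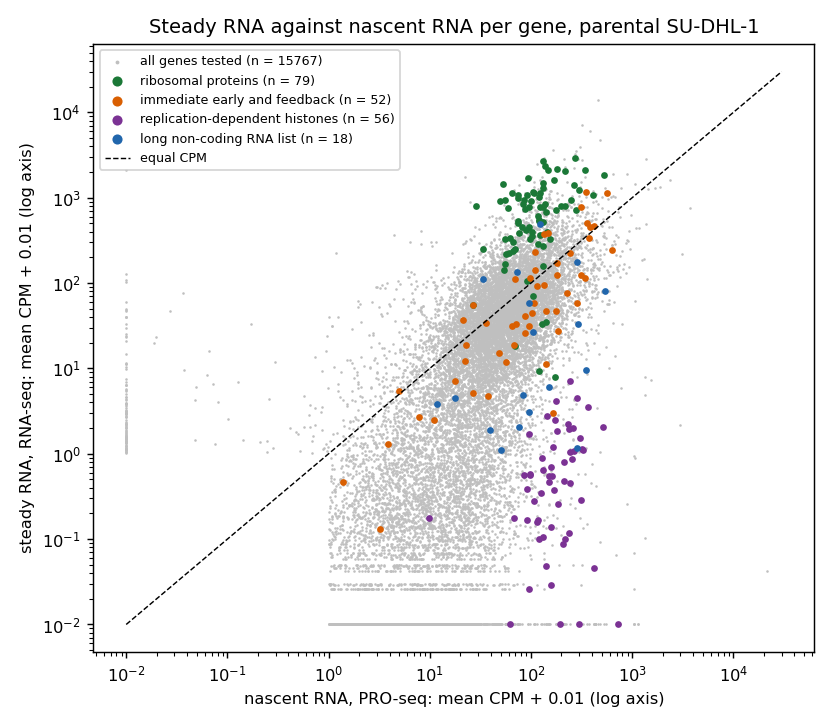
Mean CPM of steady RNA (RNA-seq, vertical axis) against mean CPM of nascent RNA (PRO-seq, horizontal axis), each a mean of 3 parental libraries plus 0.01, on log axes; each point is 1 of 15767 genes and the dashed line marks equal CPM. Ribosomal protein genes lie mostly above the line, replication-dependent histone genes all lie below it, and genes with no count in an assay line up at 0.01.

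The ratio differed with the length of the gene window. Whether length itself or the kinds of gene at each length lay behind this was not tested. In PRO-seq a polymerase is counted anywhere along the gene, so a long gene collects nascent counts over its introns, whereas RNA-seq counts fall on the mature RNA, whose length was not used here. Among 8543 coding genes with an isolated window (no other window on the same strand, a window of 0.5 to 1.5 times the RefSeq span, above 1 CPM in both assays and outside the 2 chromosome regions described below), the length decile with the shortest windows (median 3.39 kb) had a median log2 ratio of 1.17 and the decile with the longest (median 193 kb) of -1.01. From shortest to longest, calls of higher steady RNA numbered 257, 191, 165, 153, 135, 127, 79, 39, 12 and 3. Calls of lower steady RNA numbered 52, 51, 40, 36, 36, 49, 32, 71, 68 and 176 in the same order. Median steady RNA stayed between 29.8 and 46.4 CPM over the deciles, whereas median nascent RNA was 27.3 CPM in the shortest and 114 CPM in the longest. Counting nascent reads per kilobase of window, which divides by that same length, turned the trend round. The median was then -1.74 in the shortest decile and 2.28 in the longest. Per kilobase, 2740 genes (17.4%) were higher in steady RNA and 5923 (37.6%) lower. In a fit of these 8543 genes alone, 592 (6.93%) were higher and 1006 (11.8%) lower. Neither scale is free of length. For some of the lists below a median per kilobase is given as well, and for some a comparison with the median of genes in the same decile of window length. Other lists are given on the scale of counts alone.

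**Figure D2:**
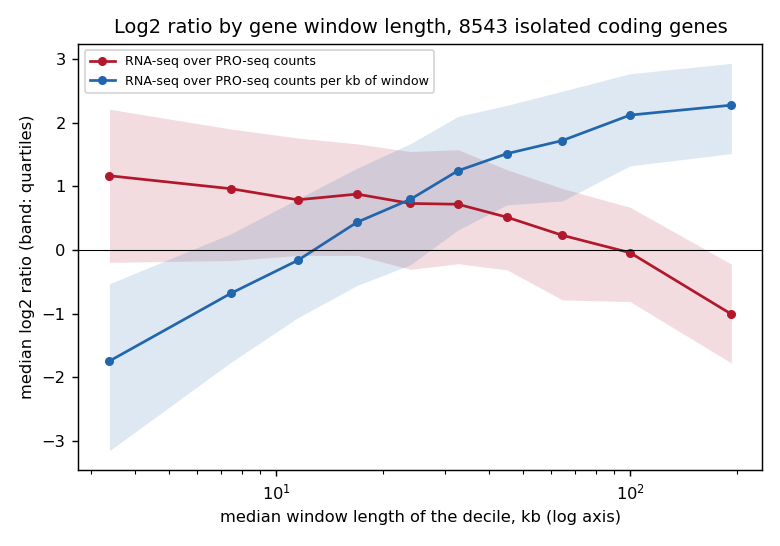
Median log2 ratio of steady to nascent RNA (lines and points; bands run from the lower to the upper quartile) in deciles of window length, plotted at each decile's median window length in kilobases on a log axis, for 8543 isolated coding genes. The ratio of counts goes from 1.17 in the shortest decile to -1.01 in the longest, and the ratio to nascent counts per kilobase from -1.74 to 2.28.

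Some ratios rest on windows that could not collect nascent counts. All 110 genes with no PRO-seq count had windows at least 98.8% covered by another window on the same strand, 108 of them fully. HNRNPA1, which encodes an abundant splicing regulator, had 1958, 2184 and 2269 CPM in steady RNA and no nascent count in any library. Such genes stay in the counts below: ALDOA among the glycolytic enzymes, ATP5PO in oxidative phosphorylation and SNORA73B among small structured RNAs had no nascent count and were called higher, and so were SMG8 of nonsense-mediated decay, with 3 nascent counts, and the snoRNA host C6orf48, whose windows were also nearly covered. These 5 calls say nothing of the ratio. A window can also be a fragment of a gene, as for the cytoskeletal linker MACF1 with 1363 bases and the initiation factor subunit EIF3F with 626 bases. In 2 stretches neighbouring genes were low in nascent RNA together. At 29 to 34 Mb of chromosome 6, the MHC region, 63 of 93 coding genes were higher in steady RNA and 8 lower, with a median of 3.54, and at 54 to 55 Mb of chromosome 19, 11 of 16 were higher and 0 lower, with a median of 3.55. The part that alignment or gene copy number plays in these stretches was not tested.

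Ribosomal protein genes were among the lists with the most steady RNA relative to their nascent RNA. Of 79 members, all tested, 68 were higher in steady RNA, 2 were lower and 9 were not called, with a median of 3.28 beside 0.27 over coding genes. RPL4, of the large subunit, had 2433, 2328 and 2350 CPM in steady RNA, against 148, 136 and 133 CPM in nascent RNA, a log2 ratio of 4.99 ± 0.12 (SE, n = 3 each; edgeR adjusted p = 7.3e-15). RPL7A had 1026, 1110 and 1275 CPM in steady RNA, against 68.4, 58.6 and 69.0 CPM in nascent RNA (5.02 ± 0.13). The assays did not overlap for either gene. Another window on the same strand covered 30.2% of the RPL4 window and 56.0% of the RPL7A window, where nascent counts could be lost. RPL29, whose window had no such overlap, had 1032, 1055 and 1164 CPM in steady RNA, against 76.4, 67.2 and 77.9 CPM in nascent RNA (4.77 ± 0.12). Of the 79 ribosomal protein genes 30 had an overlapped window. These are short genes, with a median window of 3.96 kb, and per kilobase of window their median was 0.83. Against genes of the same length decile, 32 of the 36 with isolated windows lay above their decile's median and 4 below, by a median of 2.06. Most ribosomal protein genes have many processed pseudogenes, so how their reads were assigned is uncertain.

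Messengers of ribosomal proteins and elongation factors are known for the 5′ terminal oligopyrimidine tract, a run of C and T at the first base of the RNA that ties their translation and stability to growth signals. Stretches at the starts of genes with high and with low ratios are printed here. Each runs from 10 bases before to 20 bases from the RefSeq start (GRCh38.p14), with capitals marking a run of at least 5 C or T that opens with C within 5 bases of that start. They lie at chr9:133348208-133348237 on the plus strand (RPL7A), chr3:51995876-51995905 on the minus strand (RPL29), chr6:73521013-73521042 on the minus strand (EEF1A1), chr19:3985444-3985473 on the minus strand (EEF2), chr17:7306989-7307018 on the plus strand (EIF5A), chr6:34426050-34426079 on the minus strand (RPS10) and chrX:101391001-101391030 on the plus strand (RPL36A).
RPL7A: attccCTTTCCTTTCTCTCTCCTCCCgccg
RPL29: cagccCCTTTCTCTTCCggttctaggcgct
EEF1A1: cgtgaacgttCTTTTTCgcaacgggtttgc
EEF2: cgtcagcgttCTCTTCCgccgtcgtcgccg
EIF5A: tgggaacccgaccacactagcgcgctagaa
RPS10: catgctCCTTCCTTTCCagccccggtaccg
RPL36A: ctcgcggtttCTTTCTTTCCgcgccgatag
The run was searched on the transcribed strand only and is a description, not a mapped start. It was present in 51 of the 63 ribosomal protein genes with a RefSeq start region, against 5749 of 27305 (21.1%) over all start regions. Since 63 of 79 is under 80%, no check of the list is drawn from this. The EIF5A stretch holds no such run, but the window counted for EIF5A opens downstream of it, at 7307588, so the stretch may belong to another start.

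Translation factors followed the same pattern. Of 36 tested, 27 were higher in steady RNA, 1 was lower and 8 were not called, with a median of 2.64. EEF1A1, which carries aminoacyl-tRNA to the ribosome, had 14408, 13968 and 13684 CPM in steady RNA, against 466, 426 and 500 CPM in nascent RNA (5.81 ± 0.15, adjusted p = 1.3e-14). EEF2, the translocation factor, had 7563, 7084 and 6509 CPM in steady RNA, against 313, 313 and 326 CPM in nascent RNA (5.37 ± 0.13). Every steady RNA library exceeded every nascent library by more than an order of magnitude for these genes. EIF5A gave 5.11 ± 0.12 and EIF4G1, the scaffold of the cap-binding complex, 4.16 ± 0.11. All 20 factors with isolated windows lay above the median of their length decile. In DGE, a count of transcript ends in parental cells given the solvent DMSO, EEF1A1 averaged 29.1 CPM and RPS3A 33.0 CPM, and their log2 ratios to nascent RNA there were -3.47 and -0.23; both have many near-identical copies.

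Chaperones had a median of 3.34, with 21 of 26 higher in steady RNA, 0 lower and 5 not called. HSP90AA1, the inducible cytosolic HSP90, had 3850, 3712 and 3368 CPM in steady RNA, against 176, 158 and 166 CPM in nascent RNA (5.34 ± 0.13). HSPA8, the constitutive HSC70, had 2963, 2905 and 2772 CPM in steady RNA, against 125, 128 and 148 CPM in nascent RNA (5.32 ± 0.13). Both genes were separated between assays in every library. The chaperonin subunit CCT3 gave 3.57 ± 0.10 and the mitochondrial HSPD1 4.07 ± 0.11. All 16 chaperones with isolated windows were above their decile's median, by a median of 2.13, and per kilobase the list median was 2.82.

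Glycolytic enzymes were mixed between strong and modest ratios, with 12 of 23 higher in steady RNA, 0 lower, 11 not called and a median of 2.15 (2.17 per kilobase). ENO1, the enolase of most tissues, had 5008, 4563 and 4659 CPM in steady RNA, against 538, 459 and 460 CPM in nascent RNA (4.18 ± 0.13). LDHA, which makes lactate, had 2836, 2728 and 2784 CPM in steady RNA, against 307, 310 and 332 CPM in nascent RNA (4.03 ± 0.11). GPI, which makes fructose 6-phosphate, gave 4.39 ± 0.13. LDHB stood apart at -1.43 ± 0.12, from 28.6, 23.7 and 29.8 CPM in steady RNA, against 155, 137 and 122 CPM in nascent RNA. Other RNA libraries gave LDHB another direction: it averaged 1017 CPM in DGE (log2 ratio 3.40), and with 3 empty vector RNA-seq libraries in place of the parental ones its log2 ratio was 0.17.

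Proteasome genes had 25 of 36 higher in steady RNA, 1 lower and 10 not called, with a median of 2.35. PSMD2, a base subunit of the regulatory particle, had 350, 325 and 314 CPM in steady RNA, against 24.4, 20.0 and 30.3 CPM in nascent RNA (4.62 ± 0.14). Nuclear genes of oxidative phosphorylation had 31 of 71 tested (72 in the list) higher, 3 lower and 37 not called, with a median of 1.70 and of 0.31 per kilobase. ATP5F1B, the catalytic beta subunit of ATP synthase, had 798, 811 and 844 CPM in steady RNA, against 51.7, 53.6 and 58.0 CPM in nascent RNA (4.81 ± 0.11). The steady RNA of each of these genes lay above its nascent RNA in all libraries. Proteasome genes with isolated windows were above their decile's median in 28 of 30 cases and oxidative phosphorylation genes in 45 of 63, by medians of 1.58 and 0.57. The 13 genes encoded by mitochondrial DNA could not be compared: RNA-seq listed 37 mitochondrial genes with 3.10 to 4.11% of its counts, and PRO-seq listed 0.

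Cytoskeletal and other small abundant proteins had 16 of 26 tested (28 in the list) higher in steady RNA, 2 lower and 8 not called. ACTB, cytoplasmic actin, had 5711, 6454 and 5978 CPM in steady RNA, against 383, 334 and 420 CPM in nascent RNA (4.89 ± 0.14). FTL, the light chain of the iron store ferritin, had 2482, 2364 and 2567 CPM in steady RNA, against 111, 120 and 110 CPM in nascent RNA (5.34 ± 0.13). Their libraries did not overlap. The list's median was 2.53 and, for these genes of short window (median 3.56 kb), 0.10 per kilobase.

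Proliferation genes also ranked high. Of 39 cell cycle genes tested (41 in the list) 20 were higher in steady RNA, 0 lower and 19 not called, with a median of 2.27. MKI67, the Ki-67 antigen gene, had 666, 645 and 487 CPM in steady RNA, against 88.4, 107 and 93.1 CPM in nascent RNA (3.53 ± 0.13). CDC20, an activator of the anaphase ubiquitin ligase, gave 3.88 ± 0.12 and cyclin CCNA2 3.23 ± 0.10. The lowest member was the short-lived cyclin CCNE2, with 13, 11.6 and 12.1 CPM in steady RNA, against 32.1, 32.8 and 37.6 CPM in nascent RNA (-0.58 ± 0.14). Ribosome biogenesis factors had 17 of 29 higher, 1 lower and 11 not called, with a median of 2.22. NCL, the nucleolar protein nucleolin, gave 4.08 ± 0.11 from 2075, 1992 and 1839 CPM in steady RNA, against 219, 211 and 217 CPM in nascent RNA.

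**Figure D3:**
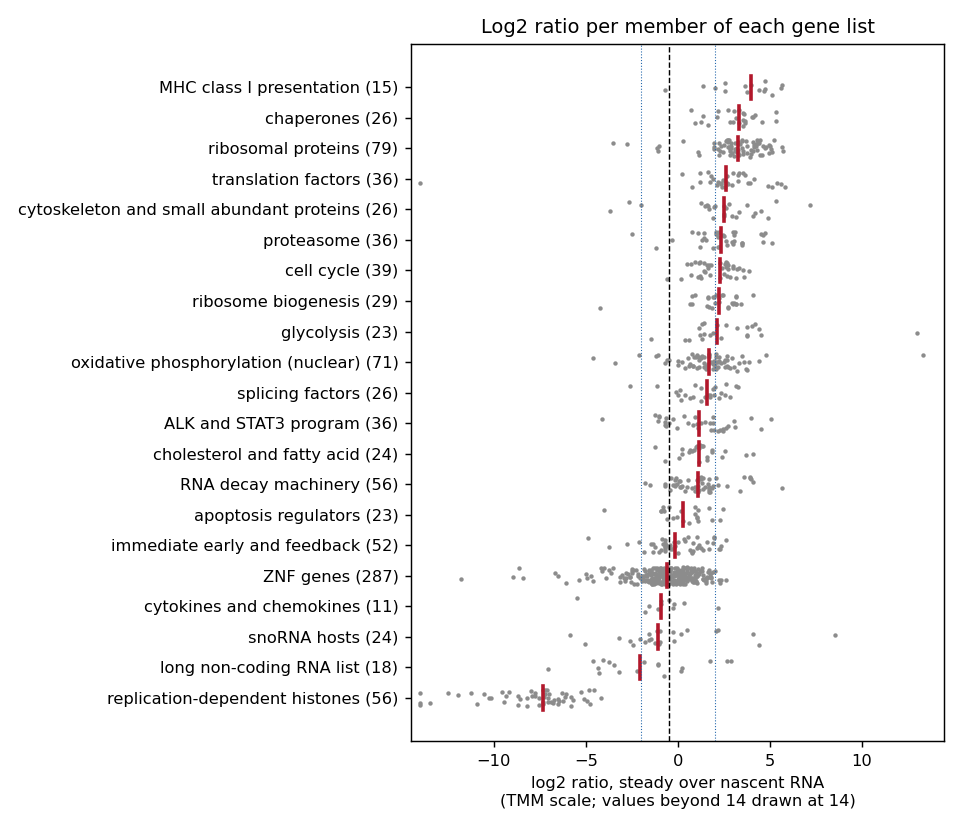
Log2 ratio of steady to nascent RNA (horizontal axis, TMM scale) of each tested member of 21 gene lists, with the number tested in brackets; points are genes, red bars the list medians, the dashed line the median of all 15767 genes (-0.46) and dotted lines the 4-fold limits. Chaperones (3.34) and ribosomal proteins (3.28) lie to the right of the dashed line, and replication-dependent histones (-7.33) lie farthest to the left of the lists drawn, which leave out small structured RNAs.

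MHC class I presentation had the highest list median, 3.97, with 12 of 15 tested (18 in the list) higher in steady RNA, 0 lower and 3 not called, but 8 of the 15 lie in the chromosome 6 stretch with low nascent counts. Without both stretches the median was 2.57. HLA-B, a classical class I heavy chain, had 54.4, 56.1 and 60.5 CPM in steady RNA, against 2.35, 1.88 and 1.89 CPM in nascent RNA (5.69 ± 0.15). TAP1, a peptide transporter subunit in the same stretch, gave 5.63 ± 0.14. Outside the stretch, B2M, the class I light chain, had 283, 316 and 350 CPM in steady RNA, against 45.3, 41.0 and 43.1 CPM in nascent RNA (3.77 ± 0.11), and the chaperone CANX gave 3.65 ± 0.11. HLA genes are polymorphic and alike, so their read counts are uncertain in both assays. TUBB, a tubulin gene of the same stretch, gave 7.20 ± 0.12.

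Genes of the ALK and STAT3 program ranged widely. GZMB, the cytotoxic granzyme B, had 1220, 1120 and 1315 CPM in steady RNA, against 75.4, 64.5 and 62.3 CPM in nascent RNA (5.07 ± 0.13, adjusted p = 1.5e-14). PRF1, perforin, had 1011, 942 and 954 CPM in steady RNA, against 99.8, 110 and 127 CPM in nascent RNA (4.01 ± 0.12). No library of the other assay came near these levels. The secreted inhibitors TIMP1 and SERPINA1 gave 4.53 ± 0.15 and 4.47 ± 0.12. Over the ALK and STAT3 program 11 of 36 tested genes (40 in the list) were higher, 1 lower and 24 not called, with a median of 1.18. STAT3, the factor that ALK signalling activates, had 1972, 1923 and 1774 CPM in steady RNA, against 687, 653 and 605 CPM in nascent RNA (2.44 ± 0.11). ALK itself had 538, 569 and 551 CPM in steady RNA, against 404, 379 and 337 CPM in nascent RNA (1.46 ± 0.10). IL2RA, the CD25 gene, had more nascent than steady RNA in CPM, with 1658, 1582 and 1597 CPM in steady RNA, against 2149, 2687 and 2223 CPM in nascent RNA, and a log2 ratio after scaling of 0.35 ± 0.11.

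Of the 10 genes that the study's design turns on and that were joined, 2 were called, both higher. MYC, a growth factor-responsive transcription factor with a short-lived messenger, had 349, 377 and 407 CPM in steady RNA, against 115, 133 and 159 CPM in nascent RNA (2.38 ± 0.12), and 0.25 per kilobase of its 5204-base window. CSNK2B, the regulatory subunit of casein kinase 2, had 14.6, 16.9 and 21.6 CPM in steady RNA, against 8.26, 6.63 and 8.32 CPM in nascent RNA (2.10 ± 0.19). It lies in the chromosome 6 stretch, gave -0.20 per kilobase, and averaged 384 CPM in DGE. Its call was lost without RNA-seq replicate 3 (1.90) and without PRO-seq replicate 2 (1.97). The catalytic subunits CSNK2A2 and CSNK2A1, outside that stretch, gave 1.86 ± 0.10 and 1.58 ± 0.09.

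ZFP91 and IKZF1, targets of lenalidomide's ligase, were not called. ZFP91 had 112, 119 and 111 CPM in steady RNA, against 92.2, 103 and 80.8 CPM in nascent RNA (1.2 ± 0.10). IKZF1, the lymphoid factor Ikaros, had 655, 593 and 530 CPM in steady RNA, against 705, 836 and 732 CPM in nascent RNA (0.54 ± 0.11). Its sign depended on the RNA libraries, at -0.21 with empty vector RNA-seq and -0.58 with DGE, and on the scaling. CRBN, the drug's receptor cereblon, had 35.6, 42.4 and 38.4 CPM in steady RNA, against 59.6, 66.7 and 59.3 CPM in nascent RNA (0.22 ± 0.11, adjusted p = 0.059), with -0.12 in DGE. The lymphoid factors IRF4 and BATF3 gave 1.80 ± 0.13 and 1.28 ± 0.11. JUN, an AP-1 subunit, gave -0.30 ± 0.11, and 0.35 with empty vector RNA-seq.

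**Figure D4:**
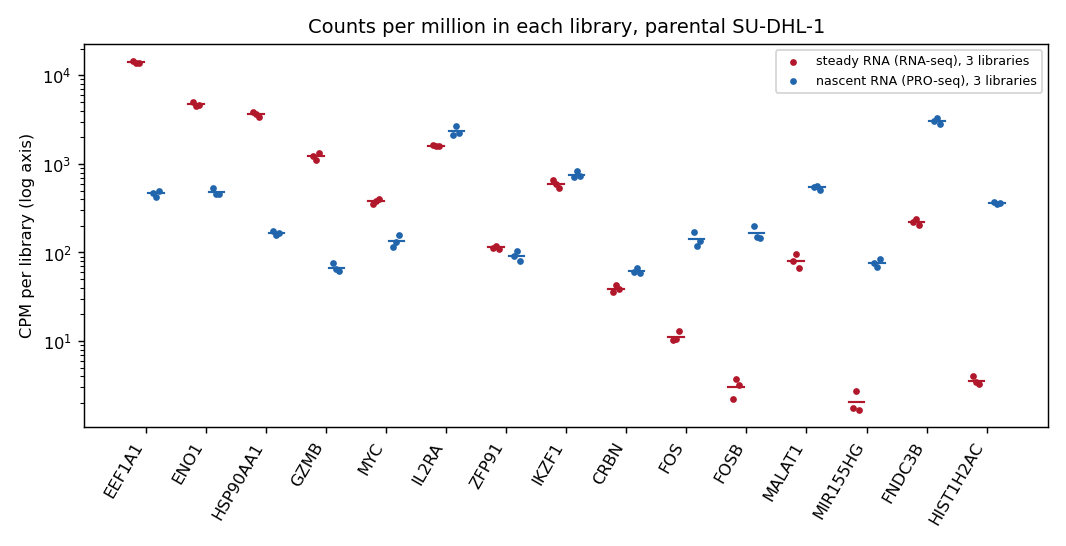
CPM of 15 genes in each parental library on a log axis: 3 steady RNA libraries (RNA-seq, red, left) and 3 nascent RNA libraries (PRO-seq, blue, right) per gene, with a bar at each mean. EEF1A1, HSP90AA1 and GZMB have steady RNA far above nascent RNA, ZFP91 and IKZF1 have similar CPM in both, and FOSB, MIR155HG and HIST1H2AC have nascent RNA far above steady RNA.

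Immediate early genes are switched on within minutes of a signal and their feedback regulators soon after, and many of their messengers are cleared by AU-rich element decay. Of 52 tested (55 in the list), 4 were higher in steady RNA, 4 were lower and 44 were not called. Over all coding genes 13.9% were higher and 14.8% lower, both larger shares than in this list. The list's median was -0.17, lower than the 0.27 of coding genes although its windows are short (median 4.42 kb). Against genes of the same length decile, 12 of 43 lay above the decile's median and 31 below, by a median of -0.97, and per kilobase the list's median was -2.18. FOS had 10.2, 10.4 and 13 CPM in steady RNA, against 170, 119 and 134 CPM in nascent RNA (-2.75 ± 0.15, adjusted p = 4.6e-11). FOSB, an AP-1 subunit of the same family, had 2.19, 3.70 and 3.18 CPM in steady RNA, against 201, 150 and 145 CPM in nascent RNA (-4.87 ± 0.18). In CPM, both had far less steady than nascent RNA in every library. Nascent counts were taken over the whole window of a gene. Those near its start were not set apart, and their part was not tested. NFKBIZ, a nuclear IkB protein, gave -2.08 ± 0.17 (-1.95, short of the 4-fold limit, without RNA-seq replicate 1) and EGR3, a zinc finger factor with few counts, -3.73 ± 0.48. DUSP1, a MAP kinase phosphatase, had 27, 27.8 and 27.5 CPM in steady RNA, against 172, 158 and 227 CPM in nascent RNA (-1.86 ± 0.12), short of the 4-fold limit.

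Not all early response genes were low. CCND3, cyclin D3, had 1188, 1162 and 1174 CPM in steady RNA, against 318, 360 and 373 CPM in nascent RNA (2.64 ± 0.10). MCL1, a short-lived survival protein of the BCL2 family, gave 2.30 ± 0.10 from 404, 383 and 385 CPM in steady RNA, against 159, 139 and 146 CPM in nascent RNA, and 0.13 per kilobase. SOCS3, the feedback inhibitor of STAT3, gave 1.91 ± 0.12, and -0.87 per kilobase.

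Of 32 cytokine and chemokine genes 12 were joined and 11 tested, with 1 higher, 1 lower, 9 not called and a median of -0.90. IL10, an inhibitory cytokine, had 192, 213 and 236 CPM in steady RNA, against 453, 491 and 505 CPM in nascent RNA (-0.28 ± 0.10). TGFB1 was the member called higher, with 379, 336 and 331 CPM in steady RNA, against 135, 138 and 159 CPM in nascent RNA (2.17 ± 0.10), whereas in DGE it averaged 17.5 CPM and its log2 ratio was -2.52. The member called lower was IL13, at 0.0575, 0 and 0 CPM in steady RNA, against 1.45, 1.71 and 2.03 CPM in nascent RNA.

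Regulators and machinery of decay showed modest ratios. Of 56 genes of RNA decay 10 were higher in steady RNA, 0 lower and 46 not called, with a median of 1.12. KHSRP, which binds AU-rich elements, gave 3.95 ± 0.11. The lowest was ZC3H12A, the RNase Regnase-1 that degrades inflammatory messengers and its own, with 19.9, 20.3 and 22.5 CPM in steady RNA, against 123, 109 and 174 CPM in nascent RNA (-1.79 ± 0.15). Splicing factors with poison exons had 8 of 26 higher, 1 lower and 17 not called (median 1.58), and known targets and factors of nonsense-mediated decay 2 of 16 higher, 2 lower and 12 not called (median 0.39). DDIT3, the stress factor CHOP, was one of the lower ones, at 2.42, 4.23 and 4.36 CPM in steady RNA, against 72.1, 57.6 and 64.1 CPM in nascent RNA (-3.23 ± 0.19). Apoptosis regulators had 2 of 23 tested (27 in the list) higher, 1 lower (DIABLO, -4.02 ± 0.20) and 20 not called, cholesterol and fatty acid genes 4 of 24 tested (25 in the list) higher, 0 lower and 20 not called, and genes of the amino acid and unfolded protein responses 7 of 23 (24 in the list) higher, 2 lower and 14 not called.

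MIR17HG, MIR155HG and DLEU2, hosts of microRNAs that were picked after their values were seen, had far more nascent than steady RNA. A microRNA is cut out of its host by the Drosha complex in the nucleus, and the rest of the transcript is degraded. The mature microRNAs of these 3 hosts are shown 5′ to 3′ from RefSeq (GRCh38.p14) with the seed, bases 2 to 8, in capitals, because the seed largely decides which messengers they bind. Those of MIR17HG lie at chr13:91350618-91351382 on the plus strand, miR-155-5p at chr21:25573983-25574006 on the plus strand in MIR155HG, and those of DLEU2 at chr13:50049167-50049188 (miR-15a-5p) and chr13:50049027-50049048 (miR-16-5p) on the minus strand.
miR-17-5p: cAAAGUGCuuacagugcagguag
miR-20a-5p: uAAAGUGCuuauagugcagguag
miR-18a-5p: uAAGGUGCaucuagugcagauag
miR-19a-3p: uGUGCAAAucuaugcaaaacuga
miR-19b-3p: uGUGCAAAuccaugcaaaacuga
miR-92a-3p: uAUUGCACuugucccggccugu
miR-155-5p: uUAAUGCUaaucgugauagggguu
miR-15a-5p: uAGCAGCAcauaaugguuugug
miR-16-5p: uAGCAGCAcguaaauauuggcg
MiR-17-5p and miR-20a-5p share a seed, as do miR-19a-3p and miR-19b-3p, and miR-15a-5p and miR-16-5p. The mature forms were not measured here. MIR17HG, a MYC target, had 4.55, 8.17 and 5.39 CPM in steady RNA, against 170, 131 and 152 CPM in nascent RNA (-3.75 ± 0.17, adjusted p = 3.7e-12). MIR155HG had 1.73, 2.70 and 1.67 CPM in steady RNA, against 75.5, 68.1 and 84.9 CPM in nascent RNA (-4.34 ± 0.17). DLEU2 had 4.66, 4.82 and 5.05 CPM in steady RNA, against 87.7, 92.6 and 71.7 CPM in nascent RNA (-3.22 ± 0.15). Nascent RNA exceeded steady RNA in every library for all 3 hosts. Their ratios are no lower than the median of all long non-coding genes (-4.66), and lie below that of long non-coding genes above 1 CPM in both assays (-2.18). MIR22HG, the host of miR-22-3p, gave -1.06 ± 0.19 and was not called.

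The list of long non-coding RNAs named for nuclear roles had 2 of 18 tested (20 in the list) higher in steady RNA, 9 lower and 7 not called, with a median of -2.04. All 18 were above 1 CPM in both assays, and over the 475 long non-coding genes of that kind the median was -2.18. LINC-PINT had 0.633, 2.00 and 0.882 CPM in steady RNA, against 271, 297 and 291 CPM in nascent RNA (-7.06 ± 0.20). PVT1, next to MYC on its chromosome, had 7.88, 9.82 and 11.1 CPM in steady RNA, against 349, 355 and 350 CPM in nascent RNA (-4.29 ± 0.13). Steady RNA was below nascent RNA in every library for both. NORAD, a cytoplasmic RNA that binds PUMILIO proteins, was the opposite, with 507, 526 and 461 CPM in steady RNA, against 115, 124 and 129 CPM in nascent RNA (2.92 ± 0.10).

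MALAT1 and NEAT1, of nuclear speckles and paraspeckles, are known as abundant nuclear RNAs. MALAT1 had 80.7, 95 and 66.9 CPM in steady RNA, against 551, 567 and 509 CPM in nascent RNA (-1.86 ± 0.11), yet averaged 2236 CPM in DGE, where its log2 ratio was 2.57. NEAT1 had 123, 191 and 217 CPM in steady RNA, against 277, 285 and 296 CPM in nascent RNA (0.21 ± 0.15, adjusted p = 0.22), with -0.76 in regrown cells. Column extraction and any poly-A selection, which the sources used here do not give, bear on nuclear and non-polyadenylated RNA, and their part was not tested.

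Host genes of snoRNAs are spliced to release small nucleolar RNAs from their introns, and many of the spliced remains are cleared by nonsense-mediated decay. Of 24 tested (26 in the list), 5 were higher in steady RNA, 6 lower and 13 not called, with a median of -1.07. Over all genes tested 10.9% were higher, a smaller share than in this list, and 33.3% lower, a larger share. The median was -0.46 over all genes and -2.18 over long non-coding genes above 1 CPM in both assays. ZFAS1 had 53.8, 58.0 and 74.7 CPM in steady RNA, against 1127, 1073 and 987 CPM in nascent RNA (-3.20 ± 0.14), whereas it averaged 1209 CPM in DGE (log2 ratio 0.71). SNHG19 had 1.09, 3.06 and 2.45 CPM in steady RNA, against 264, 217 and 236 CPM in nascent RNA (-5.86 ± 0.20). GAS5, a classical substrate of nonsense-mediated decay, had 114, 148 and 180 CPM in steady RNA, against 374, 311 and 309 CPM in nascent RNA (-0.27 ± 0.14, adjusted p = 0.088), and its sign turned with empty vector RNA-seq (0.71) and DGE (0.41). Reads of the snoRNAs themselves inside a window could not be told apart from the host's.

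Replication-dependent histone genes lay far down the ranking. All 56 tested were lower in steady RNA, with a median of -7.33, and 18 of the 56 were above 1 CPM in steady RNA; the rest passed the filter through nascent RNA alone and could only be low. Of the 64 genes of the list 58 were joined. Their messengers end in a stem-loop in place of a poly-A tail. HIST1H2AC had 3.97, 3.41 and 3.23 CPM in steady RNA, against 373, 357 and 365 CPM in nascent RNA (-5.79 ± 0.12). HIST1H1C, a linker histone, had 2.93, 6.23 and 4.26 CPM in steady RNA, against 361, 240 and 251 CPM in nascent RNA (-5.10 ± 0.21). The assays did not overlap for either gene. HIST1H4C had 0.345, 0.294 and 0.098 CPM in steady RNA, against 221, 150 and 186 CPM in nascent RNA (-8.70 ± 0.25), but averaged 1430 CPM in DGE, where its log2 ratio was 3.47. Histone genes share sequence, and their reads can move between paralogs.

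Of 15 small structured RNA genes tested (20 in the list) 12 were lower in steady RNA, 1 (SNORA73B, in a covered window) higher and 2 not called, but 2 of the 15 were above 1 CPM in both assays and most of the others could only be low. RNU1-1, a U1 spliceosomal RNA gene, had no RNA-seq count, against 545, 320 and 268 CPM in nascent RNA. RMRP, the RNA of RNase MRP, had no RNA-seq count either, against 57.6, 81.0 and 50.7 CPM in nascent RNA. A floor of 3 counts was set over the RNA-seq group, on plain CPM without the TMM shift. Counted steady RNA was then at least 6965-fold below nascent RNA for RNU1-1 and at least 1144-fold for RMRP. These folds describe counts in the libraries, not amounts in the cells. Column extraction, any poly-A selection and the assignment of reads bear on them, and their part was not tested. Mitochondrial pseudogenes were high in PRO-seq: MTND2P28 had 6.85, 6.06 and 8.77 CPM in steady RNA, against 1738, 1787 and 1074 CPM in nascent RNA; PRO-seq listed no mitochondrial gene.

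Some long coding genes had low ratios on the scale of counts. FNDC3B, a membrane protein gene with a window of 362060 bases, had 219, 241 and 203 CPM in steady RNA, against 3084, 3302 and 2858 CPM in nascent RNA (-2.91 ± 0.11), and 1.09 per kilobase. ABCA13, a large transporter gene of 476040 bases, had 697, 878 and 705 CPM in steady RNA, against 3240, 4500 and 3451 CPM in nascent RNA (-1.40 ± 0.14), and 2.99 per kilobase. ABCA13 was short of the 4-fold limit and not called. For both genes the direction rests on whether nascent counts are divided by length.

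Other coding genes were low on both scales. HFM1, a meiotic helicase gene with a window of 143645 bases, had 1.38, 2.47 and 2.6 CPM in steady RNA, against 2393, 3518 and 3008 CPM in nascent RNA (-9.52 ± 0.23, and -6.86 per kilobase), and no DGE count. IL19, a cytokine of the IL10 family, had 1.61, 1.71 and 1.91 CPM in steady RNA, against 201, 232 and 205 CPM in nascent RNA (-6.03 ± 0.14, and -4.36 per kilobase). TYW1B gave -5.66 ± 0.13 and TPRG1 -6.30 ± 0.18, with -2.17 and -2.26 per kilobase. Transcription through these windows left almost no counted RNA in any library. Whether polymerases in them belong to the annotated gene or to a transcript that runs into it was not tested.

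Zinc finger genes, many of them repressors that bind transposons, had a lower median than coding genes as a whole. Of 287 tested genes named ZNF (293 joined), 5 were higher in steady RNA, 40 lower and 242 not called, with a median of -0.58; over all coding genes 13.9% were higher and 14.8% lower. Against their length deciles, 43 of 225 lay above the decile's median and 182 below, by a median of -1.13. ZNF207, a spindle protein gene, was among the 5 called higher, with 274, 252 and 252 CPM in steady RNA, against 97.5, 99.1 and 87.9 CPM in nascent RNA (2.35 ± 0.10). ZNF410 was among the lower, with 2.30, 1.53 and 1.32 CPM in steady RNA, against 100, 107 and 92.4 CPM in nascent RNA (-4.98 ± 0.17).

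Several members of otherwise high lists were low, and for some of them DGE held many counts. RPS10, a ribosomal protein, had 8.34, 7.82 and 7.59 CPM in steady RNA, against 179, 162 and 172 CPM in nascent RNA (-3.54 ± 0.11), and averaged 89.4 CPM in DGE. RPL26 gave -1.12 ± 0.12 by RNA-seq and 4.17 by DGE, and 0.90 with empty vector RNA-seq. PSMA2, a core proteasome subunit, gave -2.50 ± 0.16 and 2.52 by DGE. NDUFA13, of respiratory complex I, gave -3.41 ± 0.21 and 2.82, and its partner NDUFV2 -4.60 ± 0.19 and -0.30. NOP2, a ribosomal RNA methyltransferase, gave -4.24 ± 0.18 and 0.50, ARPC1B of the actin-nucleating ARP2/3 complex -3.66 ± 0.29 and 2.02, and the splicing factor U2AF1 -2.60 ± 0.18 and 2.09. In RNA-seq they were below their nascent RNA in every library.

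The wider set shows the same split. Over 10811 genes matched by symbol, RNA-seq and DGE levels, which share no library, had a Spearman's rho of 0.790, yet 24 genes had under 5 CPM in RNA-seq and over 100 CPM in DGE, and 18 of the 24 were called lower. Of 1038 coding genes called lower and matched, 130 had over 8 times as many CPM in DGE as in RNA-seq. Some belong to read-through genes, which join 2 neighbours and carry both symbols. Of 142 tested coding genes named in such a pair, 62 were lower, 11 higher and 69 not called, with a median of -1.46, against 0.29 for the other coding genes. RPS10-NUDT3 and RPL36A-HNRNPH2 are rows of the RNA-seq data with 0 counts in all 3 libraries, and 46 of 90 read-through genes had none. How RNA-seq reads on shared exons were counted is not given in the sources used here, and its part in these low ratios was not tested.

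The lenalidomide-regrown cells, 3 resistant pools kept off the drug for at least 2 months, gave a second pair of assays that shares no library with the parental pair. There 1391 genes (8.9%) were higher in steady RNA and 5474 (35%) lower of 15629 tested. Among the 15487 genes tested in both, 1246 were higher in both, 73.4% of the parental calls and 90.8% of the regrown calls, and 4812 were lower in both, 94.7% and 89.3%. Calls in opposite directions numbered 2 among parental higher calls and 0 among parental lower calls. In regrown cells ribosomal proteins had 2.71, chaperones 2.93, immediate early genes -0.22 and zinc finger genes -0.45 as list medians. Of single genes, EEF1A1 gave 5.6, GZMB 4.33, FOS -3.18, FOSB -3.53, MIR17HG -5.17 and HIST1H2AC -6.06 there. The gene windows and the way of counting were the same in both pairs.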

How the data were processed

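The authors deposited raw counts per gene, which held a different whole-number total in each library and carried no normalization. Per the submitters' processing notes, PRO-seq used cutadapt 1.14, Bowtie 1.2.2 and featureCounts 1.6.2 on hg38, RNA-seq lists STAR 2.6.1d, DESeq2 1.20.0 and edgeR 3.24.3 on hg38, and DGE lists FastQC, Bowtie2 2.2.3 and DESeq2 on hg19. The RNA-seq counting tool, its strand setting and its treatment of overlapping genes, and whether DGE tags were collapsed by molecular identifier, are not given in the sources used here. The deposited PRO-seq counts come with 1 window per gene, and its length is the end minus the start plus 1 for all 17792 genes. RNA-seq held 58735 genes and DGE 17463; 370 PRO-seq genes had no match in RNA-seq and 1655 joined genes were below the filter. Of the sample columns in the deposited count data 18 were used and 24, of other groups, were not.

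Counts of 3 RNA-seq and 3 PRO-seq libraries were fitted together in edgeR 4.0.16 (R 4.3.3; TMM, quasi-likelihood test, two-sided, Benjamini-Hochberg over all 15767 genes), with no covariate. A gene was called at an adjusted p under 0.05 and a log2 ratio of at least 2 in size. Log2 ratios are steady over nascent RNA on the TMM scale, with the SE taken as the log2 ratio divided by the square root of F; CPM are plain. A fold against no counts uses a floor of 3 counts over the group. In 15767 genes of simulated counts for this comparison, 198 of 200 changed genes were recovered with 0 false calls. The real counts gave 1716 higher and 5252 lower calls, far more than the 200 genes changed in the simulation. The simulation therefore cannot show whether the scaling and the calls hold under changes so many and so unequal. The smallest chi-square per degree of freedom between replicates was 6.81, so none was a duplicate.

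The comparison, its members, the 31 gene lists and the rule for named genes were chosen with earlier results of these data known. Named were the study's design genes, the 12 highest and 12 lowest called genes by ratio (6 and 6 per length), the 8 with most counts in each assay, up to 4 members at each end of each list, and single members needed to describe a list; not all are printed. The microRNA hosts, read-through genes and the other genes given beside DGE values were chosen after their values were seen. Gene classes, microRNAs and start regions came from RefSeq (GRCh38.p14), which matched 14668 joined genes. Alternatives in scaling, tool (DESeq2 1.42.0), filter, threshold, replicates, RNA libraries and gene length are given in the closing part. Regrown cells, empty vector RNA-seq and DGE were fitted the same way, and the last 2 share the PRO-seq libraries with the main comparison.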

Additional observations from a re-analysis of the deposited data

How the results depend on the processing

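Leaving out each library in turn gave 1645 to 1735 genes higher and 5229 to 5302 lower in steady RNA, against 1716 and 5252 with all 6. DESeq2, its size factors, no filter, empty vector RNA-seq, regrown cells, removal of overlapped windows and removal of both chromosome stretches left both counts within 1.5 times. Higher calls numbered 680 with library size only, whose log2 ratios are all lower by 0.895, 990 with over 1 CPM asked of both assays, 592 (6.93%) in a fit of isolated coding windows alone, 2740 with nascent counts per kilobase, 780 with DGE over nascent counts per kilobase and 3897 at a 2-fold limit. Lower calls numbered 1659 with over 1 CPM in both assays, 3426 with over 10 CPM in either, 1006 (11.8%) in isolated coding windows, 2419 with DGE and 2884 with DGE per kilobase. The stricter filters and the isolated windows test fewer genes, and the cause of the other differences was not tested. Isolated windows, overlaps, stretches and both per-kilobase scales were chosen after seeing the data. The planned ratio with exonic length was not run.

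With the replicate number as a block the counts were 1719 and 5271. Deviations of libraries with the same number correlated at 0.056, 0.127 and 0.236, and RNA-seq replicate 1 correlated best with PRO-seq replicate 2 (0.080), so the numbers were not taken as pairs.

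Over most of the genes named in the text and the alternatives that could be fitted, 1774 values kept direction and side of the threshold, 57 lost the call, 42 gained one and 59 changed sign. Of list medians over at least 5 genes, 309 stayed within the spread between replicates, 219 moved beyond it and 14 changed sign. With library size only the sign changed for IKZF1 (-0.35), CRBN (-0.67), TNFRSF8 (-0.0797), IL2RA (-0.55), NEAT1 (-0.69) and the medians of nonsense-mediated decay targets (-0.51) and apoptosis regulators (-0.63), and the other 24 list medians moved. With DGE in place of RNA-seq the sign changed for IKZF1 (-0.58), CRBN (-0.12), EEF1A1 (-3.47), RPS3A (-0.23), RPL26 (4.17), NOP2 (0.50), LDHB (3.40), PSMA2 (2.52), NDUFA13 (2.82), ARPC1B (2.02), U2AF1 (2.09), TGFB1 (-2.52), MALAT1 (2.57), ZFAS1 (0.71), GAS5 (0.41) and HIST1H4C (3.47), and for the medians of snoRNA hosts (0.42), nonsense-mediated decay targets (-0.33) and apoptosis regulators (-0.17). With DGE over nascent counts per kilobase it changed for CRBN (-0.21), IRF4 (-0.093), MYC (-2.0), EEF1A1 (-6.06), EIF5A (-0.13), RPS3A (-2.89), RPL29 (-1.30), RPL26 (1.69), HSPA8 (-0.74), ACTB (-2.44), LDHB (2.91), PSMA2 (1.47), NDUFA13 (1.41), ARPC1B (1.36), CDC20 (-0.23), U2AF1 (0.97), SOCS3 (-3.20), MCL1 (-1.86), TGFB1 (-2.94), MALAT1 (0.68), NEAT1 (-2.64), FNDC3B (0.017) and ABCA13 (0.69). The same scale turned the medians of cytoskeletal genes (-0.32), splicing factors (-0.39), nonsense-mediated decay targets (-0.12), cholesterol genes (-0.34), apoptosis regulators (-1.06) and amino acid response genes (-0.67). In isolated windows CRBN (-0.29) and the median of apoptosis regulators (-0.25) changed sign. With empty vector RNA-seq IKZF1 (-0.21), JUN (0.35), RPL26 (0.90), LDHB (0.17) and GAS5 (0.71) did, and with over 1 CPM in both assays CRBN (-0.17), IL2RA (-0.042), NEAT1 (-0.19) and the medians of nonsense-mediated decay targets (-0.15) and apoptosis regulators (-0.13). Per kilobase of window CSNK2B (-0.20), SOCS3 (-0.87), NEAT1 (-2.41), FNDC3B (1.09) and ABCA13 (2.99) changed sign, and in regrown cells NEAT1 (-0.76). DGE libraries held 0.335 to 0.348 M counts, so their low values are the least precise, and intervals and floors cover counting error only.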

Other observations

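Coding genes on chromosome X stood above those on the autosomes: of 347 tested, 100 were higher in steady RNA and 37 lower, with a median log2 ratio of 1.08, against 1475 higher and 1640 lower of 10987 autosomal coding genes, with a median of 0.26. Their median nascent RNA was 26.4 CPM, against 48.0 CPM for autosomal genes, and their median steady RNA 29.8 CPM, against 33.3 CPM. This contrast was noticed in the data and has no test here.

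A pair of genes with isolated windows, picked after their values were seen, had large ratios. PRPF8, the central protein of the spliceosome, had 1269, 1163 and 1013 CPM in steady RNA, against 70.8, 67.5 and 66.6 CPM in nascent RNA (4.96 ± 0.12). SSRP1, a subunit of the histone chaperone FACT, had 604, 598 and 578 CPM in steady RNA, against 35.6, 37.8 and 42.0 CPM in nascent RNA (4.84 ± 0.11). For both genes every steady RNA library lay above every nascent library.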
